A study of Mus musculus with 6 samples.

Results

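Gene-desert regions are stretches of open chromatin that lie outside every protein-coding gene body and more than 500 kb from the nearest protein-coding start site. They were found in 6 deposited ATAC-seq peak lists from dissected face tissue of E11.5 mouse embryos, all wild type, with 2 libraries of each label (maxillary process, mandibular process, nose). No treatment or allele was labelled, and the cell type was given as mixed, so each list pools the accessible chromatin of all cells of a dissected process, and the labels do not say whether the replicates came from separate embryos. Peaks of all libraries that overlapped by at least 1 bp were merged into 382006 regions, of which 176192 were called in both libraries of at least one label. The desert regions were chosen by these calls and by position. A region was taken if its strongest summit met both distance limits, and 8677 regions did, against 73615 other intergenic regions that met the same call rule at 1 to 500 kb from a start.

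ATAC-seq finds open chromatin with the Tn5 transposase, which inserts sequencing adapters where DNA is not wrapped around nucleosomes. Open regions far from genes are often enhancers, which bind transcription factors and act on promoters across long distances through looping of chromatin. Such long-range control is well known in the face. Deletions of distant elements in the desert around Sox9 are tied to jaw and palate defects in humans and mice, and in the desert around Myc to facial defects in mice. CTCF is the zinc-finger protein that, with cohesin, anchors loops and domain boundaries. Accessibility by itself does not show that a region is an enhancer, nor which gene it acts on, so each region is described here by the genes that flank its desert.

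The lists were not equally long. The library labelled maxillary process replicate 1 had 219779 peak lines and the others had between 275387 and 299731, and the lists labelled maxillary process replicate 2 and mandibular process replicate 1 began at a −log10 q of 2.55 and 1.62, against 1.3 in the other 4, where q is the p-value of a peak adjusted for all positions tested and a larger value is a stronger peak. Those 2 were also the longest lists, at 299726 and 299731 lines, as a limit on list length would leave them, so a region missing there may have had a q that other lists include. The 4 jaw lists had file names with the short form of the opposite jaw process, so groups are named by the labels throughout. Regions within 100 kb of jaw genes did not settle the labels. Around Hand2, which is active in the lower jaw, 4 of 40 regions had a peak in the maxillary pair of libraries and none in the mandibular pair, and 0 the other way. Around Alx1 and Alx4, which act in the upper face, 0 of 65 and 0 of 54 regions were maxillary only in this sense, against 7 and 5 mandibular only. Around Dlx5, a lower-jaw gene, maxillary-only and mandibular-only counts were 0 and 2 of 15, around Dlx6 2 and 3 of 36, around Pou3f3, an upper-jaw gene, 4 and 3 of 55, and around Hand1 0 and 0 of 31. If the jaw labels were exchanged, the values given for the 2 jaw labels below would exchange with them, while counts over all libraries and values for nose would stay.

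The letters of 13 desert regions are given first, as the strongest summit and 100 bases on each side of it in the GRCm38 reference, on the plus strand. The first 5 were among the strongest regions called in all 6 libraries. Capitals mark, on either strand, the E-box CAGATG, the E-box CAGCTG, the RUNX motif TGTGGTT, the homeodomain motif TAATTA, the AP-1 motif TGANTCA or the CTCF motif. Basic helix-loop-helix factors such as Twist1 bind E-boxes, and homeodomain factors such as Alx, Dlx and Msx proteins bind the TAAT core, so these letters are shown because the comparisons of motifs below turn on them. A match describes the sequence and does not show binding.
chrX:15322586-15322786, H2al1n the nearest start: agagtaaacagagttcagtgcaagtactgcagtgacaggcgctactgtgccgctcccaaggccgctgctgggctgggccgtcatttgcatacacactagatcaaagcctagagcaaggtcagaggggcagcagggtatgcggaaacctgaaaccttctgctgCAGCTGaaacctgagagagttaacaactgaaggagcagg
chr14:110078433-110078633, Slitrk6 the nearest start: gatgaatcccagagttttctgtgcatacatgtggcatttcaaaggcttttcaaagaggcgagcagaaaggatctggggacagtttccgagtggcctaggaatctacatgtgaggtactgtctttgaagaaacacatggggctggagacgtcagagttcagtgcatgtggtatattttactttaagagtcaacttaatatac
chr1:81593665-81593865, Nyap2 the nearest start: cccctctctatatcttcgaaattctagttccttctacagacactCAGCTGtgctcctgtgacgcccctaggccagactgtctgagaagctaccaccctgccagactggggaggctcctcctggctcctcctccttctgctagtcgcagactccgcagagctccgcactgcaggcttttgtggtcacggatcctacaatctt
chr16:71062823-71063023, Gbe1 the nearest start: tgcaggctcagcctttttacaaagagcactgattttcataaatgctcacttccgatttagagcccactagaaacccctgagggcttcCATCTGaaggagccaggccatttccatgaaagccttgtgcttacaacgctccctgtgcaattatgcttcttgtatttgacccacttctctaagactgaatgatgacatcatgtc
chr10:113431214-113431414, Atxn7l3b the nearest start: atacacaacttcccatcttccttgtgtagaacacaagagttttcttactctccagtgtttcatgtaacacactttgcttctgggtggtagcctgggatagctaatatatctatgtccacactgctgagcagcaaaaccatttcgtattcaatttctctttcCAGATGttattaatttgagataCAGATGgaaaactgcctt

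The next 6 were specific to one label, which means called in both of its libraries and in none of the other 4. The first pair came from the libraries labelled maxillary process, the second pair from mandibular process and the last pair from nose.
chr5:55049632-55049832, maxillary process, Stim2 the nearest start: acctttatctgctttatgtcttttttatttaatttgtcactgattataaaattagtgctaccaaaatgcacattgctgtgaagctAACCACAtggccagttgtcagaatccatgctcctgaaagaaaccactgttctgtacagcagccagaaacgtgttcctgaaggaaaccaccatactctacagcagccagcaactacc
chr11:92157442-92157642, maxillary process, Kif2b the nearest start: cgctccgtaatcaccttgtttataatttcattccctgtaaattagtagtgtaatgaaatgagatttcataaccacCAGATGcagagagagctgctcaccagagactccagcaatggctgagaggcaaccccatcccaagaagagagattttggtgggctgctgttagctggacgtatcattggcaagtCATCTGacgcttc
chr1:49662994-49663194, mandibular process, Tmeff2 the nearest start: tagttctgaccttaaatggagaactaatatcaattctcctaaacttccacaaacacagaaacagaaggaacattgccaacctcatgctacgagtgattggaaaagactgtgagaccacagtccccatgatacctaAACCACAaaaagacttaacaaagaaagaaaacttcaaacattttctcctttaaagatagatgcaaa
chr15:15717760-15717960, mandibular process, Cdh9 the nearest start: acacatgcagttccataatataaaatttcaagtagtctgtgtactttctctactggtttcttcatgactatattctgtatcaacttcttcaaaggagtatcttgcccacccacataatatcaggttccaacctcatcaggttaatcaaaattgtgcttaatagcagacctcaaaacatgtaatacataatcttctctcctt
chr14:112308982-112309182, nose, Slitrk5 the nearest start: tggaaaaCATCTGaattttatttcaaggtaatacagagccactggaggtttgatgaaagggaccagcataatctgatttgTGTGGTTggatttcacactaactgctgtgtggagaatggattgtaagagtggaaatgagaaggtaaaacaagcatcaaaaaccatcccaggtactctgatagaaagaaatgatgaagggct
chr12:62867454-62867654, nose, Lrfn5 the nearest start: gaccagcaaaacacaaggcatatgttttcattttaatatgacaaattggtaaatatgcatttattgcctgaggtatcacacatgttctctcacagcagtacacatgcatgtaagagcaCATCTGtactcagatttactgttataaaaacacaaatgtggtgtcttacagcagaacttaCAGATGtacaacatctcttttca

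The remaining pair shows the CTCF motif. They were among the strongest regions with a match that were called in all 6 libraries, and were picked after the motif counts were known.
chr4:67477530-67477730, Tlr4 the nearest start: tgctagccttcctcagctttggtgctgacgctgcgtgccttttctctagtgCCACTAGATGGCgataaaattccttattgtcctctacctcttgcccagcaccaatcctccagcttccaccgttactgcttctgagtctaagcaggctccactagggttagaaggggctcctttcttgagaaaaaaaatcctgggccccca
chr10:15300201-15300401, Nmbr the nearest start: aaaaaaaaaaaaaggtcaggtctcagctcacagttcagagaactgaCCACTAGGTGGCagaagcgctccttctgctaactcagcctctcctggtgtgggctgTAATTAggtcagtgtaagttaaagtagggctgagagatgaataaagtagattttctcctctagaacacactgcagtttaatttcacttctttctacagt

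The median desert region lay 727.3 kb from the nearest protein-coding start, 2143 regions (24.7%) lay over 1000 kb away, and the farthest lay 2599 kb away. Median width was 332 bp for desert regions and 326 bp for other intergenic regions. On chromosome X there were 163 desert regions, and on Y there were 0. The median distance to the next desert region was 5.17 kb, and 5686 of them (65.5%) had another within 10 kb. This spacing was not computed for other intergenic regions, which were denser, at 55.5 against 32.7 per Mb. Closeness is therefore not shown to be a trait of the deserts.

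Calls across libraries are a description, since they chose the regions. Of the 8677 desert regions, 2081 (24.0%) were called in all 6 libraries. The share was 35.3% for other intergenic regions and 39.7% over all 176192 regions. A further 500 (5.76%) were specific to maxillary process, against 4.69% of other intergenic regions and 4.13% of all regions. For mandibular process 838 (9.66%) were specific, against 6.69% and 6.12%, and for nose 1038 (12.0%), against 7.47% and 6.89%. So for each label the share specific to it was highest in the deserts and the share common to all libraries was lowest there. The other 4220 desert regions were called in some other combination. Of these, 239 (2.75%) were called in both libraries of maxillary and of mandibular process alone, against 2.45% of other intergenic regions and 2.08% of all. For mandibular process and nose the count was 351 (4.045%, against 2.77% and 2.60%), and for maxillary process and nose 198 (2.28%, against 1.93% and 1.77%).

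Most desert regions were of middling strength within their lists. Their median rank was between the 45.5th and the 55.5th percentile of a list, counted from the strongest, against 44.3 to 47.2 for other intergenic regions. Among the strongest 5% of peaks stood 29 of the 4482 desert regions called in maxillary process replicate 1 (0.647%) and 108 of the 5944 called in mandibular process replicate 2 (1.82%), the lowest and highest of the 6 libraries. For other intergenic regions the same shares ran between 1.48% and 2.69%. Regions called in all 6 libraries had a median width of 532 bp, and label-specific ones of 231 bp. The width of a region spans every peak merged into it, so regions merged from more lists tend to be wider by construction.

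Among the strongest regions called everywhere, the one 1112 kb from H2al1n on chromosome X had −log10 q values of 32.9 and 54.3 in the libraries labelled maxillary process, 28.1 and 43.2 in mandibular process, and 39.9 and 46.5 in nose. It was 959 bp wide. The region 676.6 kb from Slitrk6, a synaptic adhesion gene, had 33.6 and 52.55 in maxillary process, 42.7 and 44.05 in mandibular process, and 22.0 and 25.7 in nose. The region 748.8 kb from Gbe1, a glycogen-branching enzyme gene, had 32.1 and 53.6 in maxillary process and 36.1 and 43.6 in mandibular process, and 4.95 and 16.5 in nose. The region 502.3 kb from Atxn7l3b, inside the long noncoding gene Gm47532, had 16.4 and 29.95 in maxillary process, 42.2 and 38.3 in mandibular process and 32.4 and 39.8 in nose. Its window holds the E-box CAGATG at 2 places, with a TAAT core between them, within 10 bases of each. The other 4 of the 8 strongest lay 516.2 kb from Nyap2, 877 kb from Igfbp7, 615.7 kb from Sall3 and 512.8 kb from Celf4, and had −log10 q of at least 21.48 in every library. The deposited q depends on each list's depth, so these values order regions within a library and do not compare libraries. The widest region, of 1762 bp, lay 2242 kb from Tenm3, a teneurin adhesion gene, and its summit was 0.359 kb from the start of the long noncoding gene C130073E24Rik, inside that gene. Its window had a GC content of 61.2%.

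Of the strongest label-specific regions, the region 1051 kb from Stim2, a calcium-store sensor gene, had −log10 q of 21.1 and 35.55 in maxillary process, the region 1247 kb from Tmeff2, a transmembrane protein gene, had 19.2 and 12.0 in mandibular process, and the region 634 kb from Slitrk5 had 15.35 and 16.5 in nose. The others were near Alcam and Kif2b for maxillary process, at least 9.539, near Cdh9 and Adgrl3 for mandibular process, at least 11.9, and near Lrfn5 and Arrdc3 for nose, at least 11.7, at 580 to 1344 kb from these starts. None had a peak in the other 4 libraries. The window of the Tmeff2 region was 56.7% repeat-masked. At the distance limit, the regions just inside lay 500008, 500023 and 500037 bp from Atp11b, Btbd3 and Tmprss15 and were called in 6 libraries each. Those just outside lay 499987, 499978 and 499937 bp from Rps6ka3, Hace1 and Gm28269, and were called in 3, 6 and 2 libraries. The 3 regions farthest from a start stood 2555 to 2599 kb away between Pcdh20 and Pcdh9, both protocadherin genes, and were called in 4, 5 and 2 libraries with −log10 q of at most 6.06.

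Whether desert regions recur less often than other intergenic regions was tested with libraries whose calls had no part in choosing them. For each library, regions were taken that both libraries of at least one of the other 2 labels called, and recurrence is the share of them also called in that library. Desert regions recurred less often in all 6 libraries. In maxillary process replicates 1 and 2, 45.5% and 57.7% of 7690 desert regions recurred, against 58.2% and 69.0% of 65692 other intergenic regions. In mandibular process the shares were 58.8% and 60.7% of 6947 desert regions against 69.5% and 68.8% of 61564, and in nose 60.8% and 60.0% of 6745 against 67.7% and 69.2% of 61433. The mean was 57.2% ± 5.89 for desert regions and 67.1% ± 4.403 for other intergenic regions (SD, n = 6 libraries), a difference of -9.84 points with a range of -12.7 to -6.97. By the two-sided exact sign-change permutation test over libraries p was 0.03125, the smallest that 6 libraries allow, and adjusted p was 0.03125 over 4 tests. The libraries share regions, so they are not independent draws of the genome. The difference was -4.11 points when the intergenic regions were reweighted to the GC content of the desert regions, an alternative added after the data were seen, and -5.92 points against intergenic regions from 100 kb on, with the same sign in all 6 libraries in both. All 6 lists entered the merging and the placing of summits. With regions merged and placed from the other 4 libraries alone, also added later, the difference was -9.92 points.

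**Figure D1:**
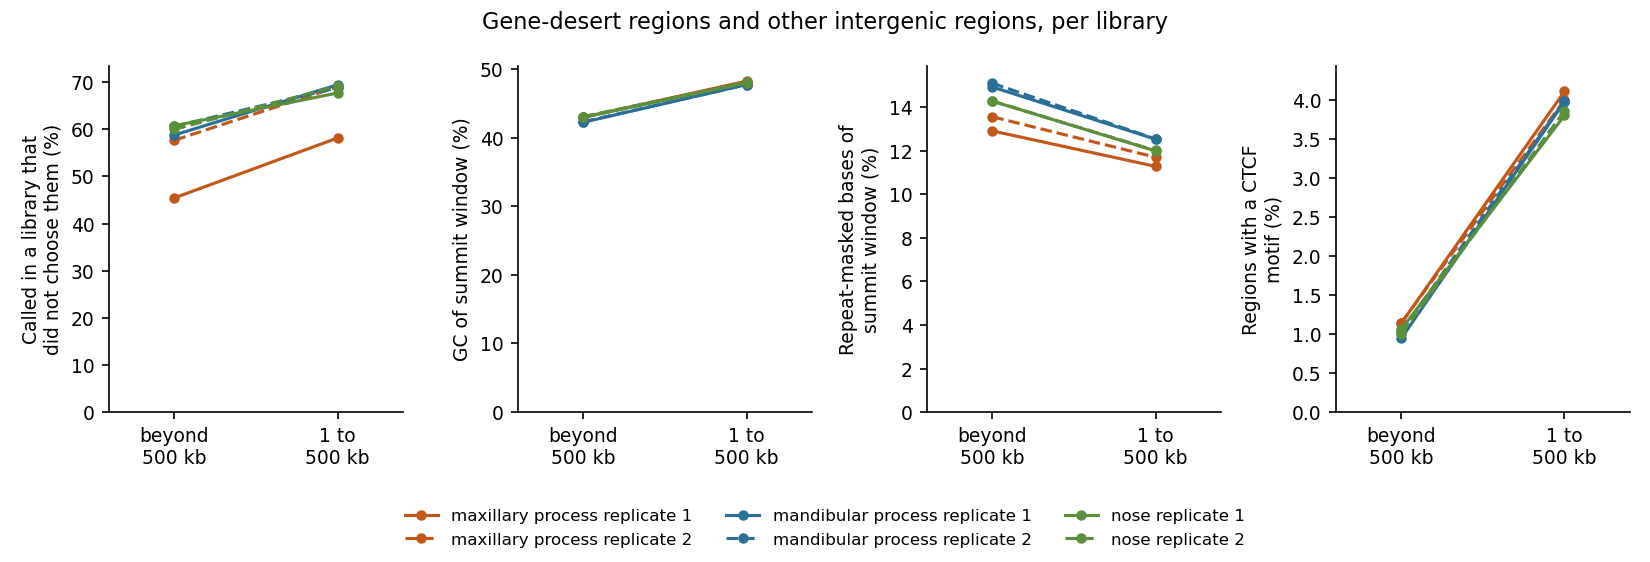
Each line joins one library's value for desert regions beyond 500 kb (left) and other intergenic regions at 1 to 500 kb (right), in percent, for recurrence, GC content, repeat-masked bases and the share with a CTCF motif. Colours mark labels and line style the replicate. All 6 lines slope the same way in each panel, and maxillary process replicate 1 has the lowest recurrence, at 45.5% and 58.2%.

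Recurrence was lower with greater distance over the whole intergenic range and not only at the limit. Averaged over the libraries it was 73.3% at 1 to 10 kb, 70.0% at 10 to 50 kb, 67.6% at 50 to 100 kb, 64.6% at 100 to 250 kb, 60.9% at 250 to 500 kb, 58.2% at 500 to 1000 kb and 54.3% beyond 1000 kb. The last bin held 2143 regions and the first 7364. Mean GC content ran from 50.9% in the nearest bin to 41.3% in the farthest and the CTCF motif from 5.92% to 0.607%, so these moved with recurrence, and their part in it was not tested beyond the reweighting above and a comparison without regions that hold a CTCF match. In that comparison the difference in recurrence was -9.31 points. With intergenic regions reweighted to the strength of the desert regions in the lists that chose them it was -7.43 points. These bins and both comparisons were added after the data were seen, and the bins carry no test.

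**Figure D2:**
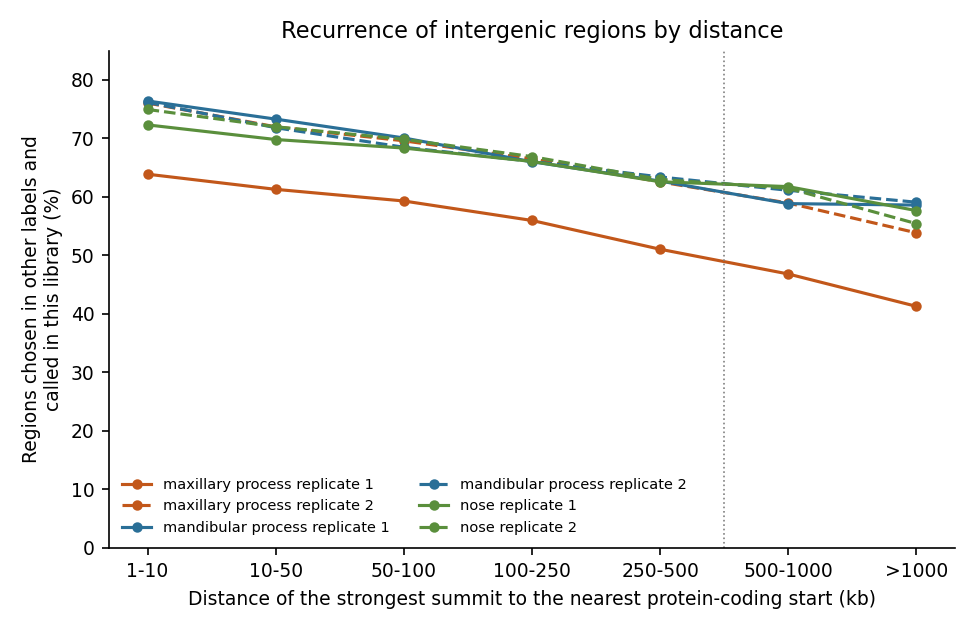
Recurrence in percent of regions chosen in other labels (y axis) by distance of the summit to the nearest protein-coding start in kb (x axis), one line per library. The dotted line is the 500 kb limit. Every library is lower in the bin beyond 1000 kb than at 1 to 10 kb. Maxillary process replicate 1 lies below the others throughout, at 63.9% and 41.3% in these bins.

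The sequence of the desert regions also differed from that of other intergenic regions. GC content of this window around the summit was 42.8% ± 0.372 in desert regions and 48.0% ± 0.215 in other intergenic regions (SD, n = 6 libraries), a difference of -5.22 points (range -5.49 to -4.99, lower in 6 of 6 libraries), with an adjusted p of 0.03125 in the same exact permutation test. Against intergenic regions from 100 kb on the difference was -3.12 points. Each region has a single window, and many regions were called in several libraries. The SD and p of GC content, repeat-masked bases and the motif shares below therefore describe how alike the libraries are. They do not measure the spread over regions. Repeat-masked bases took 14.2% ± 0.828 of the windows of desert regions and 12.0% ± 0.487 of those of other intergenic regions, higher in 6 of 6 libraries by 2.17 points on average (adjusted p = 0.03125, exact). With the limit at 250 kb that difference was 0.820 points. In 586 desert regions (6.75%) over 50% of the window was masked, against 4.61% of other intergenic regions.

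Matches to the CTCF motif were rare in the deserts. In the libraries labelled maxillary process 1.14% and 1.14% of called desert regions held one, against 4.11% and 4.00% of other intergenic regions. The shares were 0.946% and 1.03% against 3.98% and 3.99% in mandibular process, and 1.06% and 1.004% against 3.804% and 3.86% in nose. Every share of desert regions lay below every share of other intergenic regions. The mean was 1.05% ± 0.0776 in desert regions and 3.96% ± 0.110 in other intergenic regions (SD, n = 6), a difference of -2.91 points (adjusted p = 0.03125, exact permutation test). At matched GC content the difference was -2.33 points, against intergenic regions from 100 kb on it was -0.756 points, and in windows of 50 bp each side it was -1.52 points, with the same sign in all 6 libraries each time. Counted once per region, the share fell with distance over the whole intergenic range and not only at the limit. It was 5.92% at 1 to 10 kb, 0.964% at 250 to 500 kb and 0.811% at 500 to 1000 kb. In all, 66 desert regions held a CTCF match. Of the desert regions called in all 6 libraries 2.07% did, and of the 500, 838 and 1038 label-specific ones 0 did, against 0.761% of all desert regions. These classes were not compared in other intergenic regions, so the contrast is not shown to be particular to deserts.

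Of 18 other motifs, 12 were held by a larger share of desert regions and 4 by a smaller share in all 6 libraries (adjusted p = 0.03516 over 18, exact permutation test). Since desert regions are poorer in GC, each share was also set against intergenic regions reweighted to their GC content. In the same test 9 motifs were then higher and 3 lower at an adjusted p of 0.04688. A motif with the same sign in all 6 libraries has the smallest p that 6 libraries allow. Its adjusted p then depends on how many motifs reach that p, and not on the size of its difference. The E-box CAGATG was higher in both, at 27.0% ± 2.44 of desert regions and 23.7% ± 1.19 of other intergenic regions, or 25.3% after reweighting. Its difference as found was 3.96 to 4.26 points in the 4 jaw libraries and 1.68 and 1.65 points in nose. An E-box CAGATG with a homeodomain core TAAT within 10 bases was held by 6.40% ± 0.765 of desert regions and 4.12% ± 0.251 of others (5.76% reweighted). It differed as found by 2.45 to 2.86 points in the 4 jaw libraries and by 1.60 and 1.66 points in nose. The motif of AP-1, a factor pair of the Fos and Jun families, was held by 8.51% ± 0.173 and 7.15% ± 0.143 (7.44% reweighted). TGACAG, bound by the MEIS homeodomain proteins, was held by 17.99% ± 0.427 and 16.15% ± 0.390 (15.7% reweighted), and TTGGCA, a half-site of NFI factors, by 12.3% ± 0.147 and 11.2% ± 0.104 (11.2% reweighted).

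The nuclear receptor half-site AGGTCA, at 10.4% and 9.73%, and the PBX-HOX motif TGATTGAT, at 0.876% and 0.646%, were also higher in both comparisons. KLF and SP factors bind GC boxes such as GGGCGGG, which is common at promoters, and these letters were lower in both, at 1.01% ± 0.0902 of desert regions and 4.27% ± 0.118 of others (1.47% reweighted). The ETS motif CCGGAAG was lower in both too, at 0.478% and 1.26% (0.619% reweighted). Direction turned with reweighting for the E-box CAGCTG (-2.17 points as found, 1.68 reweighted), for the TFAP2 motif GCCNNNGGC (-2.35 and 0.261) and for the FOX motif TAAACA (3.005 and -1.30), so no direction is given for these. TAATTA alone differed by 2.06 points as found and -0.109 reweighted, where it no longer passed (adjusted p = 0.199, exact). The SOX motif ACAATG (1.98 points), the RUNX motif TGTGGTT (1.14 points) and the LEF/TCF motif CTTTGAT (1.20 points) were higher as found and did not pass when reweighted. The TEAD motif GGAATG and the GATA motif AGATAAG did not pass in either comparison.

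Recurrence was also compared between desert regions with and without each motif, after the motif shares were seen. Of desert regions with a CTCF match, 76.6% and 93.8% of 64 recurred in maxillary process, 83.1% and 92.3% of 65 in mandibular process and 96.6% and 89.7% of 58 in nose. Without a match, 45.2% to 60.5% did. The mean difference was 31.7 points, positive in 6 of 6 libraries. For the KLF/SP motif the mean difference was 18.8 points and for the E-box CAGCTG 6.52 points, also in 6 of 6. For FOX it was -2.34 points, negative in 6 of 6. Each had p = 0.03125 in the exact permutation test, the smallest possible. Adjusted over 19 motifs it was 0.148, so none passed the threshold of 0.05. With so few motifs at the smallest p none could pass, whatever the size of its difference. Not passing therefore does not show that a motif makes no difference.

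For the E-box CAGATG this difference had opposite signs in jaw and nose. With the E-box, 50.9% and 63.6% of 1978 desert regions recurred in maxillary process, and without it 43.6% and 55.7% of 5712. In mandibular process 66.5% and 68.2% of 1742 with it recurred, and 56.2% and 58.1% of 5205 without it. In nose 57.6% and 57.2% of 1932 with it recurred, and 62.0% and 61.1% of 4813 without it. All 4 jaw libraries were higher with the E-box and both nose libraries lower. These signs are linked between labels, since a region specific to one label counts as not recurring in every library of the others. Both libraries of a label also score the same regions. The difference between jaw and nose was not tested. Nor was it particular to deserts in the share of regions with the E-box. Of other intergenic regions called in a library, 24.35% to 24.65% held it in the 4 jaw libraries, and 22.15% and 22.3% in nose. Label-specific desert regions are among those counted as not recurring above, so their shares are not a second observation. As a description, the E-box was held by 26.8% of those of maxillary process, 29.95% of mandibular process and 15.7% of nose. The RUNX motif was held by 5.80%, 12.6% and 5.30% in that order, and SOX by 12.2%, 11.46% and 16.4%.

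**Figure D3:**
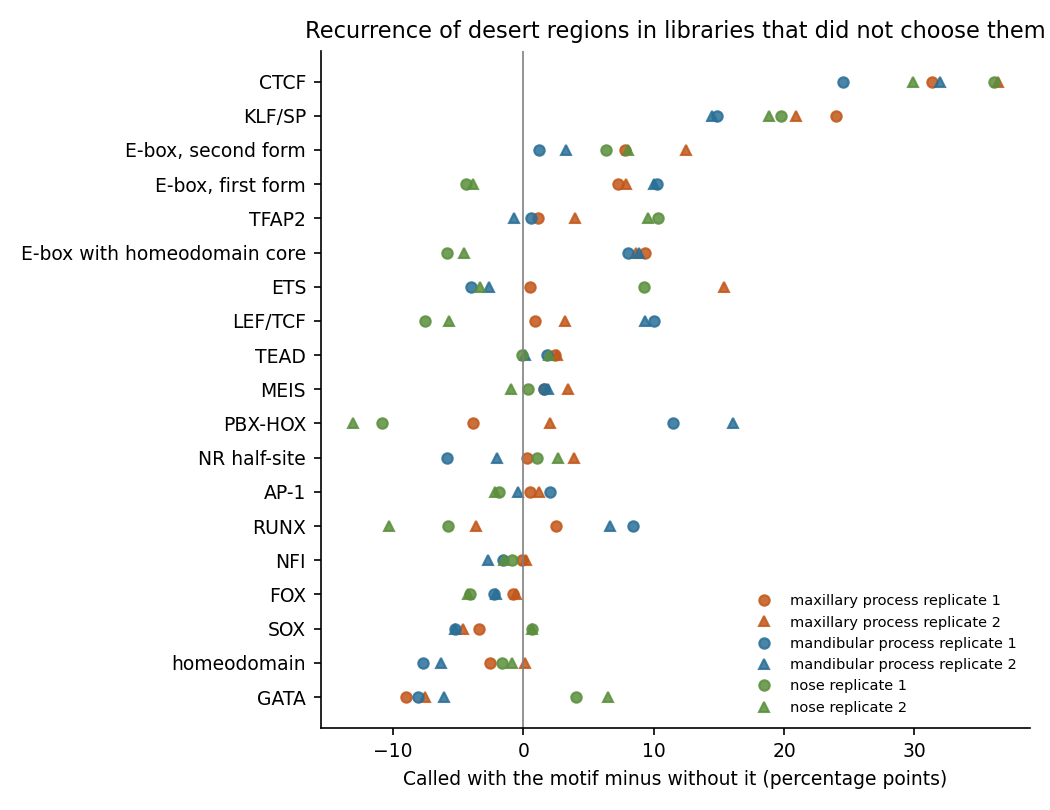
For each of 19 motifs (rows), the recurrence of desert regions with the motif minus that of desert regions without it, in percentage points (x axis), one point per library. The first form of E-box is CAGATG and the second is CAGCTG. CTCF lies furthest right, between 24.5 and 36.4 points, and the first E-box form is positive in the 4 jaw libraries and negative in both nose libraries.

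The desert regions fell into 322 of 368 deserts, that is gaps between protein-coding gene bodies with sequence over 500 kb from every start. The deserts without any include all those on chromosome Y, whose sequence is counted in the values per Mb below. A desert with any held 18.5 at the median and 164 at most, 16 deserts held 1, and 45 held at least 50. The 10 fullest held 1235 (14.2%). Desert sequence came to 265.6 Mb and carried 32.7 regions per Mb, with 35.5 per Mb at 500 to 1000 kb and 26.3 per Mb beyond, against 55.5 per Mb of intergenic sequence at 1 to 500 kb. Long noncoding gene bodies covered 6.05% of desert sequence and held the summits of 720 desert regions (8.30%), against 10.3% of other intergenic sequence and 14.0% of its regions. Of the desert regions 97 (1.12%) lay within 1 kb of a long noncoding start, against 3.695% of other intergenic regions, and 44 of the 97 (45.4%) were called in all 6 libraries, against 24.0% of all desert regions and 39.7% of regions genome-wide.

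The fullest desert, on chromosome 12 between Sel1l, a gene of endoplasmic reticulum quality control, and Flrt2, a cell adhesion and guidance gene, held 164 regions in 2.84 Mb. Of these 40 were called in all 6 libraries, and 10, 16 and 15 were specific to maxillary process, mandibular process and nose. Its neighbour beyond Flrt2, up to Galc, held 106, so Flrt2 was flanked by 2 of the 10 fullest. The desert between Slc10a2, a bile acid transporter gene, and Efnb2, an ephrin ligand gene of cell guidance, held 146, with 11, 15 and 22 specific to the labels in the same order. Zeb2, a repressor of epithelial genes active in neural crest, and Acvr2a, an activin receptor gene, flanked 124. Tenm3 and Aga flanked 120, of which 4, 21 and 15 were specific to maxillary process, mandibular process and nose, and Pcdh20 and Pcdh9 flanked 119, of which 8, 20 and 11 were. Between Igfbp7 and Adgrl3, a latrophilin adhesion gene, 1, 18 and 8 of 73 were. These deserts were chosen for such counts, and over all desert regions the shares were 5.76%, 9.66% and 12.0%, with 24.0% called in all 6 libraries. The other deserts among the fullest were Celf4 to Pik3c3 (133), Nudt12 to Efna5 (111), Epha7 to Map3k7 (108) and Fam181b to Tenm4 (104). This ranking is by count and not by density. Tenm3 to Aga and Pcdh20 to Pcdh9 held 31.3 and 29.4 regions per Mb, below the 32.7 over all deserts. The rest of the 10 fullest held 37.8 to 67.8 per Mb. Efna5 encodes an ephrin and Epha7 an ephrin receptor. The desert between Celf4 and Pik3c3 had the most nose-specific regions, 27, beside 9 and 12 for the jaw labels.

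**Figure D4:**
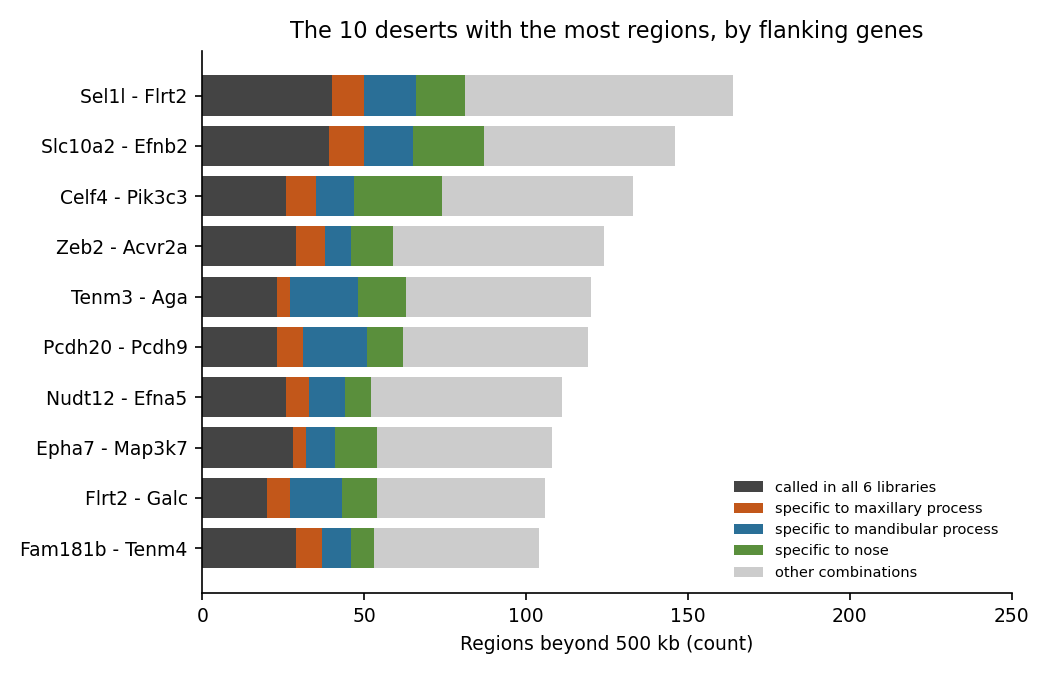
Number of regions beyond 500 kb (x axis) in the 10 fullest deserts (rows, named by flanking genes), split into those called in all 6 libraries, those specific to each label and all others. Between 20 and 40 regions of each desert were called in all 6 libraries.

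**Figure D5:**
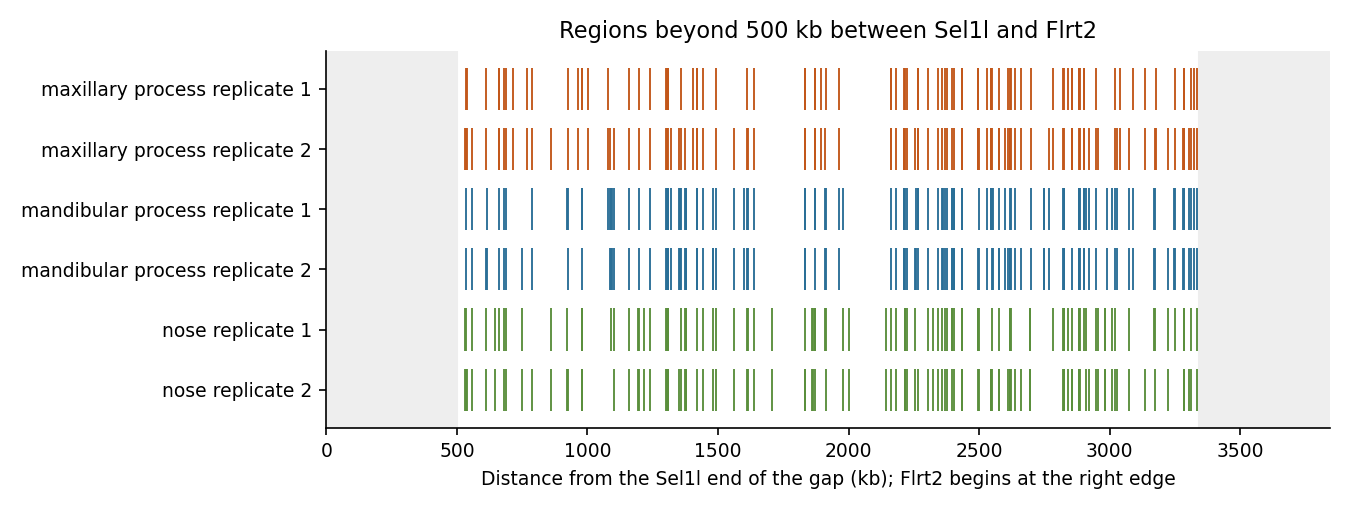
Regions beyond 500 kb called in each library (rows) between Sel1l and Flrt2, by distance in kb from the Sel1l end of the gap (x axis). Grey marks sequence within 500 kb of either end, and 40 of the 164 regions have a mark in every row.

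Deserts beside the listed facial transcription factors and signalling genes held more regions per Mb than deserts on average. Of 134 transcription factor genes listed for the face, those that flank a desert did so for 32 deserts, all with regions. They held 908 (10.5% of desert regions) in 18.1 Mb (6.82% of desert sequence), or 50.15 per Mb, against 32.7 per Mb over all deserts. Restricted to 500 to 1000 kb the values were 53.7 and 35.5 per Mb. The 6 deserts flanked by signalling genes held 124 regions, or 48.7 per Mb, with 76 of the 124 between Fstl5 and Rapgef2. The 74 flanked by adhesion and guidance genes held 3178 regions (36.6%) in 35.6% of the sequence, or 33.6 per Mb, and 27 flanked by neuronal channels and receptors held 560, or 29.9 per Mb. The 232 deserts flanked by no listed gene held 4025, or 30.05 per Mb. Among these 232 are the deserts of chromosome Y, which held 0 regions and lower this value. The desert of Efnb2, which is a guidance gene but not on the list, is also among them. These are counts without a test, and the lists were known from earlier results on the same data.

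Among the facial transcription factors, Cited2, a co-activator that partners TFAP2, shared with Nmbr a desert of 102 regions, 33 of them called in all 6 libraries. Nr2f1, a nuclear receptor of neural crest and brain, had 74 towards Arrdc3, and Gata3 had 71 towards Celf2. Sox9, the regulator of cartilage, had 49 in the 0.716 Mb beyond 500 kb towards Kcnj2, of which 11 were called in all 6 libraries and 3, 4 and 6 were specific to maxillary process, mandibular process and nose. Pou3f3, a regulator of the upper jaw, had 48 towards Tmem182 and Myc, the growth regulator, 48 towards Gsdmc, of which 17 were called in all 6. Mef2c, which acts upstream of jaw-patterning genes, had 34 towards Cetn3, with 9 specific to nose, 1 to mandibular process and 0 to maxillary process. Csmd3 to Trps1 held 41 and Tfap2b to Pkhd1 30. Sall3 (28), Nr2f2 (25), Tshz1 (24), Ebf1 (20), Isl1 (18), Sox2 (12), Klf4 (12) and Zfhx4 (11) each flanked a desert with over 10 regions. Those of Irx1, Sox6, Sall1, Sox11, Nfib, Rarb, Tshz3, Tbx3, Zic1 and Meis1, and the side of Myc towards A1bg, held 2 to 9. Over all desert regions 24.0% were called in all 6 libraries, and 5.76%, 9.66% and 12.0% were specific to maxillary process, mandibular process and nose. Over all regions these shares were 39.7%, 4.13%, 6.12% and 6.89%. The share called in all 6 was 32.35% for the desert of Cited2, 22.45% for Sox9 and 35.4% for Myc towards Gsdmc. Counts this small by label carry no test.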

How the data were processed

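Bulk ATAC-seq was measured in 6 libraries, 2 per label, from single-end reads of 50 bp. Per the labels, Bowtie2, SAMtools and mm10 were used, without versions. The study's methods give, for its ATAC-seq, the ENCODE pipeline for single replicates with peaks called on a fixed subsample of reads, but name another sequencer than these labels, and whether that covers these libraries is not given in the sources used here, nor is the peak caller by name. The authors deposited one peak list per library that gives each summit's score, its fold enrichment, and −log10 values of p and q, called in each library alone. Read depth per library is unknown, so no limit of detection can be given, and calls were the only measure set across libraries. Merging, distances (GENCODE M21, 21827 protein-coding genes), base composition and motifs (RefSeq GRCm38.p6) were computed in Python 3.11.15 (pandas 2.3.3, numpy 2.4.6), and figures were drawn with matplotlib 3.10.9. The −log10 q ranked peaks within a list. Tests were two-sided exact sign-change permutations of within-library differences, with Benjamini-Hochberg adjustment over 4 measures, 18 motif shares or 19 motif comparisons of recurrence, and a threshold of 0.05, and the functions were tested on simulated data. Reweighting used GC steps of 5 points. Alternatives varied the q threshold, list length, overlap, distance limit, window, start sites, comparison set, sex chromosomes and libraries. The regions, gene lists and motifs were chosen with earlier results of these data known. Regions named were the 8 strongest by median rank called in all 6 libraries, the 3 strongest per label, the widest, the 3 farthest and the 3 on each side of the limit. Deserts named were the 10 fullest, the 3 with most label-specific regions and those of facial transcription factors, some of which are not reported here.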

Additional observations from a re-analysis of the deposited data

Results flagged for a closer look

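For several motifs every library of one label moved one way and every library of another the opposite way, in the recurrence of desert regions with the motif minus those without it. None of these differences between labels was tested. The signs are linked, since a region specific to one label counts as not recurring in every library of the others, and both libraries of a label score the same regions. Values are means over the 2 libraries of a label, in percentage points. The E-box CAGATG had 7.59 in maxillary process and 10.15 in mandibular process, and -4.135 in nose. With a homeodomain core nearby it had 8.99 and 8.45, and -5.175 in nose. LEF/TCF had 2.04 in maxillary process and 9.66 in mandibular process, and -6.61 in nose. RUNX had 7.52 in mandibular process and -8.05 in nose, and PBX-HOX had 13.8 and -12.0. The reverse held for GATA, with 5.29 in nose, -8.26 in maxillary process and -7.06 in mandibular process, and for SOX, with 0.689, -4.03 and -5.245. The others of this kind were AP-1, with 0.847 in maxillary process and -2.03 in nose, ETS, with 7.93 in maxillary process and -3.29 in mandibular process, and the nuclear receptor half-site, with 2.08 in maxillary process, 1.84 in nose and -3.90 in mandibular process. Some of these rest on few regions with the motif. ETS had 37 in maxillary process, with 0.50 and 15.4 points in its replicates. In mandibular process it had 31, with -3.98 and -2.61 points. PBX-HOX had 47 in mandibular process and 68 in nose.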

How the results depend on the processing

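The number of desert regions followed the limits set: 4884 and 2794 with peaks of −log10 q of at least 3 and 5, 20912 beyond 250 kb and 2143 beyond 1000 kb, against 8677. Leaving out one library gave 6745 to 7690, and 8514 remained without chromosomes X and Y. The 4 tested differences kept their sign in all 6 libraries and passed under every alternative that kept 6 libraries. Without one library they kept their sign, at -10.4 to -8.42 points for recurrence, -5.39 to -5.14 for GC content, 2.01 to 2.33 for repeat-masked bases and -3.13 to -2.95 for CTCF, with 0.0625 the smallest p that 5 libraries allow, above the threshold by construction. The homeodomain (-0.109), E-box CAGCTG (1.68), TFAP2 (0.261), FOX (-1.30) and GATA (-0.0849) motifs changed sign at matched GC content. No paired analysis was possible because no test compares labels, so replicate numbers do not enter. Each test already pairs both sets of regions within a library. Read depth, which was not analysed here, limits what a missing call can show.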
